A study of Homo sapiens with 12 samples.

Results

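The 58 genes described here are the nuclear genes that encode subunits of complex III (9 genes), complex IV (11 genes) and complex V (17 genes) of the respiratory chain, together with 21 assembly factors of complex IV. They were chosen by name out of 61860 genes in the deposited table. Their measured values were not used, although earlier results of these data were known. All 58 were found by symbol and passed the filter on low counts in every fit. RNA was sequenced from 2 stable Flp-In T-REx 293 lines, which derive from human embryonic kidney cells (HEK293). In both lines doxycycline (1 µg/ml for 6 days) induced miRNAs against endogenous PGC-1α together with a FLAG-tagged cDNA that the miRNAs cannot target. The line PGC-1α WT-res received the wild-type cDNA, and the line PGC-1α ΔRS-res received a cDNA that lacks the arginine- and serine-rich RS domain. The labels give the deleted residues as 595 to 633, while the study's text starts the domain at an earlier residue. Whole-cell RNA and cytoplasmic RNA were each sequenced from 3 consecutive passages of each line, which gives 12 libraries of 90333190 to 144628005 expected counts. Each line is 1 stable integration, so that a difference between lines and a difference between clones cannot be told apart. Passages of 1 line are the replicates, and a p-value measures the spread between them. In RNA from a whole culture, fewer cells that express a gene and less RNA per cell cannot be told apart.

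The labels were checked first. PPARGC1A, which encodes PGC-1α and whose counts mix the endogenous and the introduced RNA, had read counts scaled by library size (CPM) of 672, 689 and 498 in WT-res whole-cell RNA and of 352, 364 and 498 in ΔRS-res. In the cytoplasm these were 652, 538 and 624 against 291, 287 and 385. The third whole-cell library of WT-res, by its label replicate 3, went against its label at genes that separate the lines everywhere else. Its SDHA level was 335 CPM, against 72.7 and 70.9 CPM in the other WT-res whole-cell libraries and 338 to 392 CPM in ΔRS-res. Its DDX19B level was 0.199 CPM, against 12.6 and 13.2 CPM in the other WT-res whole-cell libraries and 0.229 to 0.263 CPM in ΔRS-res. Both genes were chosen after their values were seen. The main counts and the values named from tests that this library enters are therefore mostly given with and without it. Among HEK293 markers, VIM (777 to 1023 CPM), NEFL, KRT8 and KRT18 were high, PAX2 and LHX1 lay between 1.67 and 5.67 CPM, and NEFM stayed below 0.67 CPM. Of 8 markers of other cells, 6 stayed at or below 0.121 CPM in every library, HBA1 lay between 2.68 and 6.47 CPM and COL1A1 between 3.05 and 6.34 CPM.

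Complex III passes electrons from ubiquinol to cytochrome c, complex IV (cytochrome c oxidase, COX) passes them on to oxygen, and both pump protons across the inner mitochondrial membrane. Complex V, the ATP synthase, uses that gradient to make ATP. Most of their subunits are encoded in the nucleus, translated in the cytosol and imported, while the catalytic core of complex IV is encoded by mitochondrial DNA and needs assembly factors that insert heme and copper. PGC-1α is known to co-activate transcription of many such genes through NRF1, GABPA and the estrogen-related receptors, and the comparison of the lines asks what its RS domain adds in whole-cell and in cytoplasmic RNA.

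Levels per transcript length (TPM) spread over more than 2 orders of magnitude, and the mRNAs of the structural subunits stood well above those of the assembly factors. In whole-cell RNA the median over genes was 140.8 TPM in complex III, 350.5 TPM in complex IV, 278.2 TPM in complex V and 35.6 TPM among the assembly factors. ATP5F1B, the catalytic beta subunit of the ATP synthase, was the highest of all at 1187 ± 172 TPM (SD, n = 6 libraries of both lines). COX7C, a small membrane subunit, led complex IV with 663 ± 57.6 TPM, and UQCRH, the hinge protein that faces cytochrome c, led complex III with 615 ± 52.9 TPM. COX6B1 (654 ± 58.3 TPM) and COX7C did not differ beyond their spread. Among assembly factors COA6, which takes part in copper delivery, was highest at 113 ± 3.24 TPM, and COX19 was lowest at 5.99 ± 0.508 TPM. ATP5F1E (48.4 TPM) in complex V and COX7A2L (46.6 TPM) in complex IV were the lowest structural members, at the level of the assembly factors. Isoforms of complex IV subunits that are known from particular tissues were near 0: COX6A2 had no count in any library, and COX4I2, COX6B2, COX7A1, COX7B2 and COX8C reached at most 0.15 CPM.

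**Figure D1:**
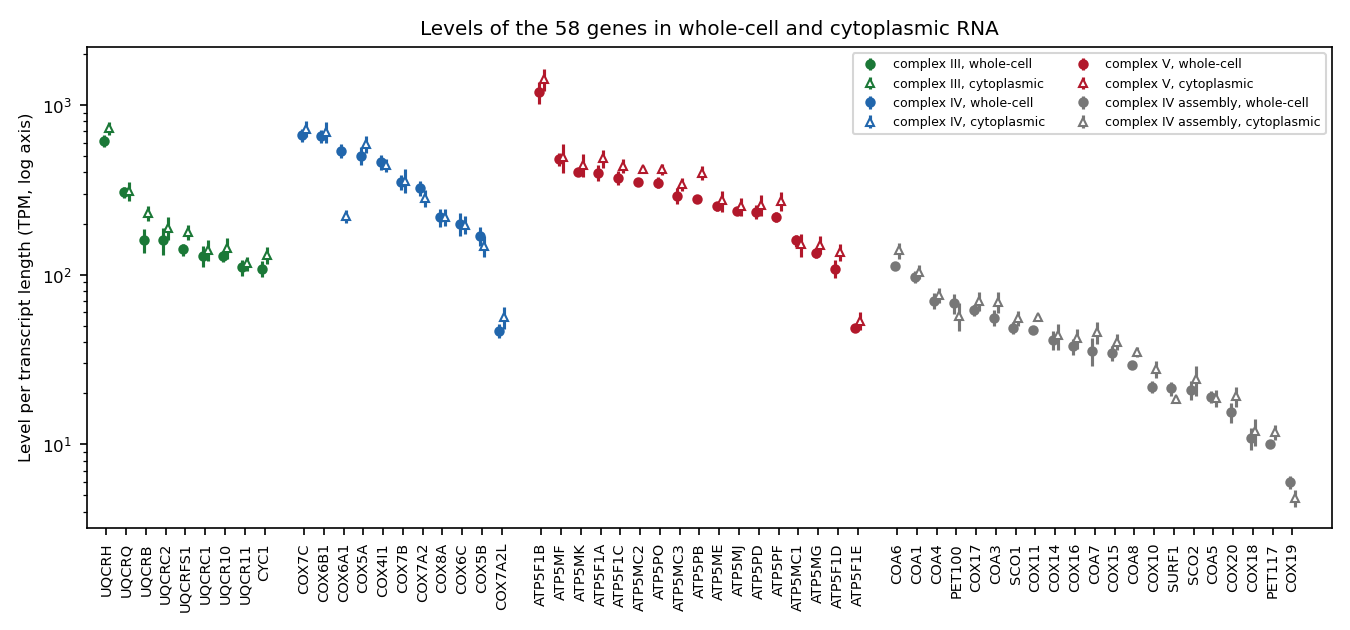
Mean level per transcript length (TPM, log axis) of each of the 58 genes in whole-cell RNA (filled circles) and cytoplasmic RNA (open triangles), with SD over 6 libraries of both lines. ATP5F1B lies highest at 1187 TPM in whole-cell RNA, most assembly factors lie below the structural subunits, and COX6A1 has the widest gap between fractions.

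The members are short transcripts and lie on 22 chromosomes. The most abundant transcript of a member had a median length of 858.5 bases, against 3298 bases over 12701 protein-coding genes with a mean count of at least 100. Promoter windows from 250 bases before to 50 bases after the start site were taken from the RefSeq table of GRCh38.p14, which held 60 windows for 49 of the members. It held none for ATP5F1B, ATP5F1D, ATP5MC3, ATP5MF, COX6C, COX11, CYC1, SCO2 and UQCRB. Each window was searched on both strands. GCATGCGC, a form of the NRF1 site, was in 10 of the 60 windows (16.7%) and in 3.05% of all 35116 windows. CCGGAAGT, a site of ETS factors such as GABPA, was in 16 (26.7%) against 4.14%. AAGATGGC, a form of the YY1 site, was in 6 (10%) against 2.89%, and TCAAGGTCA, a site of estrogen-related receptors, was in 0 against 0.353%. These letters are a description of the windows, and no binding was measured here.

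The stretches below are shown as examples that hold these letters, from COX10, UQCRH and COX6A1, which are described further on, and from COX5B and ATP5F1C; capitals mark the matches. COX5B (chr2:97645912-97646061, plus strand) holds 1 NRF1 and 1 ETS match in the bases shown, the 150 before its start site. COX10 (chr17:14069354-14069503, plus strand) holds 2 ETS matches in the bases shown, the 150 before its RefSeq start site, which overlap exons of the divergent transcript COX10-DT. The GENCODE gene COX10 starts at base 14069490, inside this stretch. UQCRH (chr1:46303598-46303697, plus strand) holds 1 ETS match on the other strand. ATP5F1C (chr10:7788097-7788176, plus strand) holds NRF1 matches on both strands that overlap, and its GENCODE start, base 7788147, lies inside the stretch. COX6A1 (chr12:120437883-120438112, plus strand) holds 2 NRF1 matches, 1 on each strand, and its last 23 bases lie in the first exon.
COX5B: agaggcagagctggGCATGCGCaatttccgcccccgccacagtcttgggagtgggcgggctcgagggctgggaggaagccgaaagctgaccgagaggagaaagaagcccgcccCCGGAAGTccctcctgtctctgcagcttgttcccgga
COX10: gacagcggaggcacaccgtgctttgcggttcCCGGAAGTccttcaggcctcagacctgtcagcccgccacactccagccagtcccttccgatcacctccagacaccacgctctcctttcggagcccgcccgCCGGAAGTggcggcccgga
UQCRH: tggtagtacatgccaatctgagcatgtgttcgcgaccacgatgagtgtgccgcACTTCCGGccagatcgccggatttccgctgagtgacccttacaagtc
ATP5F1C: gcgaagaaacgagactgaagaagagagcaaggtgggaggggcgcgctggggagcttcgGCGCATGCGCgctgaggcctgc
COX6A1: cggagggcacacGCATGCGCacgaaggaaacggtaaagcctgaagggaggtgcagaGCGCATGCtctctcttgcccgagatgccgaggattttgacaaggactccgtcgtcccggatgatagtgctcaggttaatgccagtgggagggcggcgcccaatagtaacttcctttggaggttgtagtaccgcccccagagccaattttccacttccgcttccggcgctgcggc

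Over all 58 genes, the libraries differed by little. The median log2 deviation from the mean of the 6 whole-cell libraries was -0.08, -0.07 and 0.09 in WT-res replicates 1, 2 and 3 and 0.05, -0.02 and 0.06 in ΔRS-res. In the cytoplasm it was -0.19, -0.04 and 0.02 in WT-res and 0.03, 0.18 and -0.01 in ΔRS-res, so that the lines overlapped by this measure. WT-res cytoplasmic replicate 1 was lowest, with 2 of 58 genes above the mean, and ΔRS-res cytoplasmic replicate 2 was highest, with 50 of 58. The former was also the shallowest cytoplasmic library by total count and held the largest share of counts from mitochondrially encoded genes among them (0.328%, against 0.092 to 0.248% in the other 5); the part of either in its low values was not tested. The summed CPM of the 58 genes was 7439, 8094 and 8394 in WT-res cytoplasm and 8540, 9275 and 8790 in ΔRS-res cytoplasm, so that every ΔRS-res sum exceeded every WT-res sum. This order rests on ATP5F1B, which gave 1407 CPM of the highest WT-res sum and 1557 CPM of the lowest ΔRS-res sum. Without ATP5F1B, that WT-res sum would lie just above that ΔRS-res sum. In whole-cell RNA the sums overlapped, at 7252, 7404 and 8470 CPM against 8192, 7790 and 8520 CPM, through WT-res replicate 3 alone, without which both WT-res sums lay below every ΔRS-res sum. Within a group of 3 libraries the median coefficient of variation of a gene lay between 6.11 and 10.0%.

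In whole-cell RNA, ΔRS-res and WT-res were compared with 3 libraries each. By the quasi-likelihood test of edgeR, with p-values adjusted over all genes after Benjamini and Hochberg, 0 of the 58 genes were called at the adjusted threshold of 0.05, as were 0 of 26793 genes (0.0%). At an unadjusted p under 0.05 there were 2 members, both lower in ΔRS-res, and 3360 of 26793 genes, 1071 higher and 2289 lower. DESeq2 called 0 members as well, although it called 3.96% of all genes, and a block for the replicate number, which pairs the whole-cell libraries, called 0 members and 7.97% of all genes. The median log2 fold change of the members was 0.06 with 40 of 58 above 0, and that of all genes was 0.004 with 50.7% above 0. The 2 members at an unadjusted p under 0.05 were UQCRB, a subunit of complex III (log2 fold change -0.35 ± 0.11 SE, adjusted p = 0.249, or -0.25 ± 0.09 and 0.180 without the library at odds with its label), and COX11, a copper chaperone (-0.17 ± 0.07, adjusted p = 0.344, or -0.15 ± 0.07 and 0.259 without it). Groups that did not overlap were seen for 4 members higher in ΔRS-res (6.9%, against 8.74% of all genes) and 2 lower (3.45%, against 10.2%).

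When that library, whole-cell replicate 3 of WT-res, was left out, 0 members were again called, against 552 genes or 2.06% of those tested, and 22 members had an unadjusted p under 0.05, as did 5371 of 26762 genes. The median then was 0.10 with 42 of 58 above 0, beside -0.01 with 49.3% above 0 over all genes. All 3 ΔRS-res libraries lay above both remaining WT-res libraries at 33 members (56.9%, against 21.4% of all genes) and below both at 5 members (8.62%, against 21.2%). The 5 were UQCRB, ATP5MC3, COX11, COX20 and COA7. Of the 33, 28 were structural subunits and 5 were assembly factors, namely COX10, COX14, COX18, COA5 and SCO1. The highest log2 fold changes were those of ATP5F1B (0.37 ± 0.08, adjusted p = 0.0761) and UQCRC2, a core protein of complex III (0.36, adjusted p = 0.202). ATP5MC3 came nearest to the threshold, at -0.31 ± 0.06 (adjusted p = 0.0539).

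In the cytoplasm most members had a mean slightly higher in ΔRS-res than in WT-res, and none passed the threshold when all 6 libraries were used. By edgeR's quasi-likelihood test 0 of 58 members were called, against 396 of 25949 genes (1.53%), and DESeq2 called 0 members and 3.61% of all genes. At an unadjusted p under 0.05 there were 9 members higher in ΔRS-res and 1 lower, beside 1328 of 25949 genes higher and 1469 lower. The median log2 fold change was 0.13 with 50 of 58 above 0, and 0.004 with 50.8% above 0 over all genes. It was 0.07 without ΔRS-res replicate 2, the library highest in these genes, and 0.08 without WT-res replicate 1, the lowest. By complex the median was 0.15 in complex III (9 of 9 above 0), 0.18 in complex IV (10 of 11), 0.18 in complex V (15 of 17) and 0.04 among assembly factors (16 of 21). The largest difference of any member in either direction was 0.35, below the study's limit of 0.5 in size. Groups that did not overlap were seen for 13 members higher in ΔRS-res (22.4%, against 8.62% of all genes) and for 1 member lower (1.72%, against 8.56%), ATP5MC3.

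The 5 members with the highest cytoplasmic fold change were COX14, SCO2, ATP5F1B, ATP5MC1 and ATP5MF. COX14, a factor that holds newly made COX1 for assembly, was at 11.7, 14.1 and 12.9 CPM in WT-res cytoplasm and at 16.1, 18.7 and 14.3 CPM in ΔRS-res, with every ΔRS-res library above every WT-res library. Its log2 fold change was 0.35 ± 0.13 (SE, adjusted p = 0.350). SCO2, a copper chaperone for complex IV, was at 12.3, 18.0 and 13.0 CPM against 18.7, 20.2 and 14.5 CPM. Its groups overlapped because WT-res replicate 2 lay above ΔRS-res replicate 3, and the fold change was 0.30 ± 0.18 (adjusted p = 0.640), or 0.19 without ΔRS-res replicate 2 and 0.49 without WT-res replicate 2. ATP5F1B was at 1293, 1346 and 1407 CPM against 1557, 1601 and 1768 CPM. Every ΔRS-res library was above every WT-res library, with a fold change of 0.28 ± 0.08 that had the smallest adjusted p of the 58 (0.209). ATP5MF, a membrane subunit of the synthase, was at 102, 134 and 125 CPM against 144, 175 and 116 CPM, which overlapped (0.27 ± 0.16, adjusted p = 0.640, or 0.10 without ΔRS-res replicate 2 and 0.41 without ΔRS-res replicate 3).

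The 5 lowest were ATP5MC3, COX7A2L, COA7, ATP5MC2 and SURF1, and except for ATP5MC3 their fold changes lay between -0.10 and -0.03. COX7A2L, which links complex III and complex IV in supercomplexes, was at 60.9, 52.6 and 71.0 CPM in WT-res cytoplasm and at 51.2, 55.5 and 65.1 CPM in ΔRS-res, so that the groups overlapped (-0.10 ± 0.13, adjusted p = 0.873). Its paralog COX7A2, a regular subunit of complex IV, differed by 0.08 ± 0.12. COA7 was at 104, 150 and 112 CPM against 125, 126 and 92.3 CPM (-0.09 ± 0.17). SURF1, whose loss causes Leigh syndrome, was at 12.3, 13.7 and 13.3 CPM against 12.8, 13.6 and 11.9 CPM (-0.03 ± 0.10), again with overlapping groups. SCO1, the paralog of SCO2, differed by 0.04 ± 0.08.

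The study itself measured COX5A, COX10 and COA6 by qRT-PCR, scaled to U1 snRNA and to a control line (Sham). It reported less of these mRNAs in the cytoplasm and more in the nucleus of ΔRS-res, with unaltered total levels. The values below are from sequencing and set ΔRS-res against WT-res. Assay, scaling and reference line thus differ from those of the study. COX5A, a nuclear subunit of complex IV, was at 226, 225 and 234 CPM in WT-res cytoplasm and at 255, 254 and 271 CPM in ΔRS-res. All ΔRS-res libraries were above all WT-res libraries (0.19 ± 0.07, adjusted p = 0.331), and the difference in whole-cell RNA was 0.14 ± 0.11, or 0.25 ± 0.08 without the library at odds with its label (adjusted p = 0.152). COX10, which makes heme O from heme B, was at 52.5, 49.5 and 53.6 CPM against 47.8, 45.9 and 58.7 CPM, with 2 ΔRS-res libraries below and 1 above every WT-res library (-0.03 ± 0.10, adjusted p = 0.970). COA6 was at 56.4, 72.3 and 69.3 CPM against 68.9, 77.6 and 62.6 CPM, which overlapped (0.08 ± 0.12, adjusted p = 0.897). UQCRH and COX7C, the most abundant members of their complexes, differed by 0.04 ± 0.10 and 0.18 ± 0.08 (adjusted p = 0.945 and 0.513).

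The study kept 4 cytoplasmic libraries, WT-res replicates 1 and 3 and ΔRS-res replicates 1 and 2. With these, edgeR's quasi-likelihood test called 14 members higher in ΔRS-res (10.7% of all genes were called higher) and 2 lower (11.4% of all genes). The median log2 fold change of the members was 0.20 with 53 of 58 above 0, beside 0.01 over all genes, and was 0.10 without WT-res replicate 1 and 0.11 without ΔRS-res replicate 2. Those called higher were UQCR10 in complex III, COX6B1 and COX8A in complex IV, ATP5F1B, ATP5F1D, ATP5PF, ATP5MC1 and ATP5MF in complex V, and the assembly factors COX14, COX15, COX16, COA3, COA7 and SCO2. SCO2 rose most (0.63 ± 0.07, adjusted p = 0.00268), followed by COX14 (0.51 ± 0.09, adjusted p = 0.0136), and these were the only members past 0.5. COX7A2L (-0.30 ± 0.08, adjusted p = 0.0419) and COX10 (-0.17 ± 0.04, adjusted p = 0.0398) fell, although COX7A2L had -0.19 without WT-res replicate 3 (adjusted p = 0.0619). COA7 had a fold change of 0.22 ± 0.05 with these 4 libraries (adjusted p = 0.0211) and of -0.09 with all 6, a change of direction that rests on the libraries left out. Of the 2 libraries not kept, WT-res replicate 2 was the highest of its group for SCO2, COA7, ATP5MC1 and ATP5MF, and ΔRS-res replicate 3 was the lowest of its group for the same 4 genes. When the spread was estimated from 10 libraries of both fractions, with these 4 as the cytoplasmic ones, 1 member was called, beside 1.38% of all genes. Without ΔRS-res replicate 2 the 16 calls became 2, beside 7.73% of all genes called in that fit. Without WT-res replicate 3 they became 38, all higher, beside 24.1% of all genes called in either direction (3115 of 25600 higher).

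ATP5MC1, ATP5MC2 and ATP5MC3 encode the same mature protein, the c subunit that forms the rotor ring of the ATP synthase, with different import sequences. With all 6 cytoplasmic libraries, 0 of the 3 genes were called between lines. ATP5MC1 was at 46.3, 59.6 and 51.0 CPM in WT-res cytoplasm and at 65.2, 69.4 and 55.7 CPM in ΔRS-res, where 1 ΔRS-res library fell among the WT-res values (0.28 ± 0.12, adjusted p = 0.446; 0.48 ± 0.06, adjusted p = 0.00437 with the 4 libraries). ATP5MC2 was at 175, 182 and 200 CPM against 175, 181 and 181 CPM, with the ΔRS-res values inside the range of WT-res (-0.06 ± 0.07, adjusted p = 0.881). ATP5MC3 was at 245, 288 and 271 CPM against 232, 241 and 209 CPM, lower in every ΔRS-res library (-0.24 ± 0.09, adjusted p = 0.372). In whole-cell RNA ATP5MC3 was at 252 and 255 CPM in WT-res replicates 1 and 2 and at 209, 201 and 201 CPM in ΔRS-res, and replicate 3, at odds with its label, had 200 CPM, as in ΔRS-res. Per length, ATP5MC1 made up 14.6 ± 1.24% of the summed c subunit mRNA in WT-res cytoplasm and 18.6 ± 1.13% in ΔRS-res (SD, n = 3), and ATP5MC3 39.7 ± 1.16% and 35.1 ± 1.24%. For both genes the shares of the lines did not overlap in the cytoplasm. An exact permutation test of 3 against 3 libraries cannot give a p below 0.1. The summed level was 911 ± 57.0 TPM in WT-res and 907 ± 7.28 TPM in ΔRS-res cytoplasm, less apart than the spread of WT-res. In whole-cell RNA it was 821.2, 821.5 and 728.1 TPM in WT-res replicates 1, 2 and 3 and 805.4, 810.1 and 820.0 TPM in ΔRS-res. The mean of WT-res was thus 790 ± 53.8 TPM, below the 812 ± 7.45 TPM of ΔRS-res, and without replicate 3 it was 821.4 TPM, with both libraries just above all of ΔRS-res.

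ATP5MC3 lies at 175.2 Mb of chromosome 2 (chr2:175176258-175181710, minus strand, GRCh38), in a stretch where other genes were lower in ΔRS-res too. Of 64 other genes within 5 Mb that had a mean cytoplasmic count of at least 100, 54 had a negative log2 fold change, and their median over the 64 was -0.50. Leaving out the whole-cell library at odds with its label, 52 of 63 genes were lower in whole-cell RNA (median -0.48). Around the other 57 members the median of the neighbours ran from -0.09 to 0.17 in the cytoplasm. The copy number of this stretch in each line was not measured here, and its part in the values of ATP5MC3 was not tested.

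Cytoplasmic and whole-cell RNA were compared within each line, and a value here is relative to all RNA of its fraction. The 6 mitochondrially encoded mRNAs of complexes III, IV and V (MT-CYB, MT-CO1, MT-CO2, MT-CO3, MT-ATP6 and MT-ATP8) fell in the cytoplasm of both lines, with a median log2 fold change of -3.65 in WT-res and -3.36 in ΔRS-res and 6 of 6 called in each. The nuclear members instead had a median of 0.12 in WT-res (44 of 58 above 0) and 0.19 in ΔRS-res (49 of 58), beside -0.06 over all genes in both lines. All genes here include noncoding ones. Among 12682 protein-coding genes with a mean count of at least 100, most members ranked below the middle in WT-res. Among 12699 such genes in ΔRS-res, most members ranked above it. The share of coding genes with a lower value ran from 10.4% (COX6A1) to 84.55% (COX10) in WT-res. In ΔRS-res it ran from 10.4% (COX6A1) to 93.02% (UQCRB). In WT-res, 3 members were called higher in the cytoplasm (12.0% of all genes were) and 1 lower (22.4% of all genes). In ΔRS-res, 17 were called higher (17.0% of all genes) and 1 lower (24.1% of all genes). Libraries with 1 number come from 1 cell pellet by the study's sample sheet. The third WT-res pair holds the whole-cell library at odds with its label. SDHA was at 335 CPM there and at 75.1 CPM in cytoplasmic replicate 3, and DDX19B at 0.199 and 14.5 CPM. Whether this pair comes from 1 pellet is thus uncertain. Each WT-res value and each interaction value with the pellet block uses it, and none is given without it. With a block for the pellet, 7 members were called higher in WT-res (15.4% of all genes) and 1 lower (23.3%), and 33 higher in ΔRS-res (26.3%) and 3 lower (30.2%). Leaving out whole-cell replicate 3, WT-res had 13 called higher (13.9% of all genes) and 1 lower (22.7%). Without WT-res whole-cell replicate 1 or 2 or cytoplasmic replicate 3, the 4 calls in WT-res became 2, 1 and 1, where 24.1, 23.8 and 19.3% of all genes were called. Without ΔRS-res whole-cell replicate 1 or 2 or cytoplasmic replicate 2, the 18 calls in ΔRS-res became 10, 8 and 9, where 32.9, 32.0 and 32.5% of all genes were called.

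COX6A1, the ubiquitous form of subunit 6A of complex IV, was the single member called lower in the cytoplasm of both lines. It was at 191, 189 and 230 CPM in WT-res whole-cell RNA and at 74.97, 74.7 and 89.5 CPM in WT-res cytoplasm. In ΔRS-res it was at 216, 199 and 232 CPM and at 79.5, 92.6 and 77.4 CPM. The fractions lay far apart in both lines, while the lines overlapped within each fraction, in whole-cell RNA through WT-res replicate 3 alone. The log2 fold change was -1.26 ± 0.12 in WT-res (edgeR, adjusted p = 0.000123, or -1.18 ± 0.10 and 8.77e-05 without whole-cell replicate 3) and -1.29 ± 0.09 in ΔRS-res (adjusted p = 2.025e-05), and the difference between lines was -0.04 ± 0.16 (-0.15 ± 0.14 without that library). Only 10.4% of 12682 protein-coding genes with a mean count of at least 100 had a lower value in WT-res, and 10.4% of 12699 in ΔRS-res. The gene (chr12:120438090-120440737, plus strand, GRCh38) gave 96.2% of its counts to 1 protein-coding transcript and 3.11% to a transcript with a retained intron, and no gene with a mean count above 100 overlaps it. COX6A1 was singled out after its values were seen.

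UQCRB was 1 of the members with the largest rise in the cytoplasm of ΔRS-res. It was at 101, 102 and 95.9 CPM in ΔRS-res whole-cell RNA and at 149, 177 and 139 CPM in ΔRS-res cytoplasm (0.72 ± 0.10, adjusted p = 0.000638). In WT-res it was at 108, 129 and 143 CPM and at 126, 146 and 155 CPM, where the fractions overlapped (0.26 ± 0.12, adjusted p = 0.140, or 0.0396 with the pellet block). Without whole-cell replicate 3 of WT-res this was 0.34 ± 0.12 (adjusted p = 0.0592), and without whole-cell replicate 1 it was 0.14 (adjusted p = 0.390). The difference between lines in this value was 0.45 ± 0.17 (adjusted p = 0.734), the 1 member with an unadjusted p under 0.05 in that test, and 0.35 ± 0.15 without that library (adjusted p = 0.889). Between libraries of 1 number the log2 difference between fractions was 0.346, 0.273 and 0.192 in WT-res and 0.635, 0.875 and 0.619 in ΔRS-res, which did not overlap. The WT-res value of 0.192 uses the whole-cell library at odds with its label, so that it may not be a difference within 1 pellet. With the pellet as a block the difference between lines was 0.44 ± 0.10 (adjusted p = 0.180). This value and the adjusted p of 0.0396 in WT-res both use that uncertain pair, and no blocked value without it is given. An annotated nonsense-mediated decay transcript took 52.6% of its counts, so that the gene sum does not stand for the coding mRNA alone. ATP5PB, a subunit of the peripheral stalk of the synthase, rose in both lines, by 0.35 ± 0.10 in WT-res (adjusted p = 0.0291, or 0.39 ± 0.10 and 0.0217 without that library) and 0.59 ± 0.07 in ΔRS-res (adjusted p = 0.000344). Of its counts 75.1% were in transcripts not annotated as protein-coding, against 60.2% for UQCRB, 71.2% for COX11, 85.5% for COX6C, 65.5% for COX18 and 50.1% for ATP5F1D, so that the same limit holds for the gene sums of all of these. UQCRFS1, the Rieske iron-sulfur protein, rose likewise by 0.31 ± 0.09 (adjusted p = 0.0322, or 0.36 ± 0.08 and 0.014 without it) and 0.36 ± 0.07 (adjusted p = 0.00384). COX10 rose in WT-res by 0.42 ± 0.09 (adjusted p = 0.0115, or 0.48 ± 0.08 and 0.00454 without it) and had 0.33 ± 0.12 in ΔRS-res (adjusted p = 0.055, or 0.00035 with the pellet block). Without WT-res whole-cell replicate 2 or cytoplasmic replicate 3, 0 members were called higher, beside 1514 and 977 of all genes. The WT-res rises of ATP5PB, UQCRFS1 and COX10 were thus not called in those fits. UQCRB, ATP5PB and UQCRFS1 were chosen after their values were seen.

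Whether the difference between lines depends on the fraction was tested with all 12 libraries. No member was called by edgeR's quasi-likelihood test, and 1 gene of 26686 was (0.00375%). In the edgeR test UQCRB alone of the members had an unadjusted p under 0.05, beside 1472 genes. DESeq2 called 0 members and 0 genes, with 1 member and 1352 genes at an unadjusted p under 0.05. The median interaction of the members was 0.05, with 41 of 58 above 0, and -0.02 over all genes. With the pellet as a block, 0 members and again 1 gene were called, and the members with an unadjusted p under 0.05 were UQCRB and ATP5PB (0.23 ± 0.09, adjusted p = 0.510), beside 2209 genes. Without the library at odds with its label 0 members and 1 gene were called, and the median of the members was 0.03 with 32 of 58 above 0. The median SE of a member was 0.15 on the log2 scale, and 0.11 with the block.

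At the level of transcripts the study called a change at an unadjusted p under 0.05 and a log2 fold change above 0.5 in size. By edgeR with that rule, 0 of 378 member transcripts tested were lower (3.44% of all transcripts) and 1 was higher (1.81%) in ΔRS-res whole-cell RNA. Without WT-res whole-cell replicate 3, an alternative chosen after seeing the data, 1 of 376 was lower (3.15%) and 5 were higher (3.13%). In the 4 cytoplasmic libraries, 7 of 367 were lower (4.66% of all) and 13 higher (4.12%). With 6 libraries, 3 of 371 were lower (2.13%) and 4 higher (1.93%). Member transcripts that were lower in cytoplasmic but unchanged by that rule in whole-cell RNA, the study's definition of a nuclear export target, numbered 7 of 361 with 4 libraries (4.32% of all) and 3 of 364 with 6 (1.74%). Leaving that replicate out of the whole-cell side, they numbered 6 of 360 (4.14%) and 3 of 363 (1.54%). These shares of export targets all lie below the background, on counts of only 3 to 7 member transcripts. At an adjusted p under 0.05, 0 member transcripts were called between lines, where 0 of all transcripts were called in whole-cell RNA and in the 4 libraries, 30 in the 6 libraries and 17 in whole-cell RNA without that replicate. The main transcript of SCO2 (ENST00000395693, 96.2% of its counts) had 0.60 with 4 libraries, and ENST00000393366 of ATP5MC1 (25.6% of its counts) had 0.67. Among those lower, the most abundant was an annotated nonsense-mediated decay transcript of UQCRH (ENST00000496387, 8.96% of the counts of that gene), at -0.61.

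Genes of the same pathway outside the 58 were set beside them. The 37 nuclear subunits of complex I had a median of 0.13 in the 6 cytoplasmic libraries (33 of 37 above 0), with NDUFS6 called higher (1.07) and NDUFS1 lower (-0.38). With the 4 libraries, 12 were called higher (10.7% of all genes were) and 2 lower (11.4% of all genes). Among the 4 subunits of complex II SDHA alone was called with the 6 libraries, at 2.19, while SDHB, SDHC and SDHD had between 0.07 and 0.28, and 3 of the 4 were called higher with the 4 libraries. Of 6 assembly factors of complex III, BCS1L, which inserts the Rieske protein, fell by 0.54 on the log2 scale, and the values of UQCC1, UQCC2, UQCC3, LYRM7 and TTC19 lay between -0.04 and 0.18. Chromosome neighbours were examined only around the 58 members. Whether NDUFS6, NDUFS1, SDHA and BCS1L lie in stretches that differ between the lines, like that around ATP5MC3, was not tested. None of 6 assembly factors and inhibitors of complex V (ATPAF1, ATPAF2, TMEM70, TMEM242, FMC1 and ATP5IF1) were called with 6 libraries, where their values lay between -0.15 and 0.18, and 3 rose with 4 libraries, namely ATPAF1 (0.21), TMEM70 (0.39) and ATP5IF1 (0.38). Among 8 genes around cytochrome c, HCCS, which attaches its heme, rose by 0.65. CYCS, cytochrome c itself, had 0.04 between lines in the cytoplasm and rose from whole-cell to cytoplasmic RNA by 0.47 in WT-res and 0.92 in ΔRS-res. Of 11 regulators, PPARGC1A alone was called in the 6 cytoplasmic libraries (-0.92). NRF1, GABPA, YY1 and ESRRA had -0.03, -0.08, -0.02 and 0.11. With the 4 libraries, 2 of the 11 regulators were called higher and 4 lower. Of the assembly factors of complex III, 1 was called higher and 1 lower there. Of the genes around cytochrome c, 3 were called higher and 0 lower. The 6 mitochondrially encoded subunits had a median of 0.03 between lines in the 6 cytoplasmic libraries, and 0 were called there. This median was 0.18 with the replicate block (6 of 6 above 0) and -0.32 with the 4 libraries (0 of 6 above 0). In whole-cell RNA it was -0.27 (0 of 6 above 0), or -0.19 without WT-res replicate 3 (1 of 6 above 0).

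The counts of some members share sequence or position with other genes. Named pseudogenes of 31 members, 122 in all, took at most 1.45% as many counts as their parent gene, with UQCRFS1 and PET100 above 1%. An expressed gene overlaps 27 members, on the opposite strand at 21 of them, and whether the counting used strand is not given in the sources used here. COX20 lies across from HNRNPU, which had a mean count of 192300 against 2563, and SCO2 across from NCAPH2, with 6585 against 1786. SURF1 lies across from SURF2, with 2043 against 1634. On the same strand, KLC1 overlaps COA8 (11880 against 2921) and KAT14 overlaps PET117 (2894 against 1018), and COX16 and ATP5MF share read-through transcripts with SYNJ2BP and PTCD1. The values of these 7 members, and of the others that are overlapped, are uncertain in that respect.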

How the data were processed

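RNA from 12 libraries (2 lines, whole-cell and cytoplasmic, 3 replicates each) was used. Per the labels and the study's methods, the authors ran nf-core/rnaseq with Trim Galore, STAR and RSEM on GRCh38 and tested with DESeq2. The deposited values are RSEM expected counts per transcript, which were summed per gene and rounded to whole numbers here. No column lacked a sample. Depth was 90333190 to 144628005 counts per library, so that counting error is small beside the spread between passages.

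Genes with a mean rounded count above 2 were tested with edgeR 4.0.16 in R 4.3.3 (TMM, quasi-likelihood test, Benjamini-Hochberg adjustment over all genes, threshold 0.05, two-sided). Fits used only the libraries compared, and the interaction used all 12. Scripts were tested on simulated data. DESeq2 1.42.0, other filters and scalings, a replicate block, joint fits and leaving out each library were alternatives. CPM used TMM-scaled library sizes, TPM used GENCODE 44 transcript lengths, and gene positions are from GENCODE 44.

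Same-numbered whole-cell libraries of the lines deviated together (r = 0.544, 0.548 and 0.683 over 14938 genes). The study's sample sheet ties the fractions of a number to 1 pellet (r = -0.166, 0.589 and 0.473 in WT-res and 0.519, 0.466 and 0.797 in ΔRS-res). By rule the text names the 5 highest and the 5 lowest members in the 6 cytoplasmic libraries. It also names COX5A, COX10 and COA6, which the study measured, the most abundant member of each group and the paralogs of ATP5MC1, COX7A2 and SCO2. Other members named for a test result, such as COX11 and UQCRC2, were chosen after their values were seen. The same holds for single genes called in the other lists. The members and lists were chosen with earlier results of these data known. One of the HEK293 markers is not reported here.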

Additional observations from a re-analysis of the deposited data

How the results depend on the processing

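In the whole-cell comparison, the 6 cytoplasmic libraries and the interaction, 0 members were called under every alternative run, each library left out included. The median cytoplasmic log2 fold change of the members stayed above 0, from 0.07 without ΔRS-res replicate 2 to 0.18 without WT-res replicate 3. The 16 calls in 4 cytoplasmic libraries (22.1% of all genes were called) became 2 at the study's threshold (13.1%), 31 without a filter (20.3%) and 1 in the joint fit of 10 libraries (1.38%), and ran from 2 to 38 with 1 library left out, where the lone sample is assumed to vary like the others. The 4 calls between fractions of WT-res (34.4% of all genes) became 1 at the study's threshold (31.2%), 11 with DESeq2 (38.6%) or its size factors (37.6%) and 8 with the replicate block (38.7%), and ran from 1 to 14 with 1 library left out. The 18 calls in ΔRS-res (41.1%) became 3 at the study's threshold (33.8%), 26 with DESeq2 (42.6%), 25 with its size factors (43.3%) and 36 with the replicate block (56.5%), and ran from 8 to 23. Member transcripts at the study's threshold (1, 7 and 20) became 0 with an adjusted p, and the 1 in whole-cell RNA became 6 without WT-res replicate 3, an alternative chosen after seeing the data. The causes were not tested. UQCRH in 4 libraries turned from a value above 0 to -0.0060 with DESeq2 or its size factors, -0.012 in the joint fit and -0.031 without a filter. Of all 58 members, 21 changed sign in at least 1 fit that left out a library of whole-cell RNA, 23 of the 6 cytoplasmic libraries and 14 of the 4, all with a log2 fold change of at most 0.134 in size. Among the 17 members named by rule, these were in whole-cell RNA ATP5MC2 (-0.049 to 0.071), COA7 (-0.26 to 0.054), COX10 (-0.035 to 0.13), COX7A2L (-0.092 to 0.085) and SURF1 (-0.11 to 0.035). Among these 17 in the 6 cytoplasmic libraries they were ATP5MC2 (-0.096 to 0.0026), COA6 (-0.023 to 0.15), COA7 (-0.20 to 0.087), COX10 (-0.15 to 0.030), COX7A2 (-0.024 to 0.18), COX7A2L (-0.20 to 0.013), SCO1 (-0.022 to 0.079), SURF1 (-0.088 to 0.018) and UQCRH (-0.033 to 0.12). Among them in the 4 cytoplasmic libraries they were ATP5MC2 (-0.17 to 0.022), COX7A2 (-0.098 to 0.26), SURF1 (-0.0016 to 0.11) and UQCRH (-0.14 to 0.13).

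The cytoplasmic libraries of the lines share only a number (r = -0.421, 0.619 and 0.467), and the replicate block there called 0 members. No block could be fitted to the 4 libraries, which share only replicate 1.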
